A study of Mus musculus with 12 samples.

Results

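Oxygen-glucose deprivation followed by reoxygenation (OGD/R), a culture model of cerebral ischemia and reperfusion, was applied to 2 BV2 lines, and the mean of their 2 responses is reported. BV2 cells are microglia of the mouse that were immortalized for culture. RNA was sequenced from 4 groups of 3 libraries, 12 in all, and all 12 enter each value below unless a library is said to be left out. The shCtrl-CTRL group expressed a control shRNA and was left untreated, and the shCtrl-OGDR group expressed the same shRNA and went through OGD/R. The shAnxa2-CTRL and shAnxa2-OGDR groups expressed an shRNA against Anxa2, which encodes the calcium- and phospholipid-binding protein annexin A2, and were likewise untreated or taken through OGD/R. Both lines carried a lentiviral pLKO.1 vector and were selected with puromycin, so vector, selection and BV2 background were shared by all 4 groups, and the knockdown line rests on 1 shRNA. The labels give OGD of 4 h under 1% oxygen and reoxygenation of 12 h, and the methods of the study give another reoxygenation time for BV2 cells. The study calls the libraries of a group biological replicates, the labels number them without naming separate cultures, and the p-values measure the spread between them.

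Of 11626 genes tested, 74 were called as changed after OGD/R in the same direction in both lines, which is 0.637% of the genes tested. The rule was an adjusted p under 0.05 for OGDR against CTRL within the shCtrl line and within the shAnxa2 line (edgeR quasi-likelihood test, Benjamini-Hochberg over all genes tested), with the same sign. By this rule 42 genes (0.361%) were higher and 32 genes (0.275%) were lower in both lines. The adjustment limits false calls within each line separately. No error rate was estimated for the genes that pass in both lines with the same sign. At an adjusted p under 0.01 in each line, 11 genes were higher and 6 lower. Another 5165 genes (44.4%) were called in both lines in opposite directions. Because the within-line calls chose the 74 genes, their changes are given as a description and no test of them is used as support.

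Microglia are the resident macrophages of the brain, and in ischemic tissue they meet a loss of oxygen and glucose followed by their return. Cells in general meet such a loss by lowering costly synthesis, of ribosomes, proteins and sterols, and by raising genes for glucose uptake and glycolysis. On the return of oxygen the respiratory chain of mitochondria runs again, and the lysosome, the degradative compartment that also serves phagocytosis, takes up damaged material.

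The genes that follow include enzymes of sterol synthesis, replication-dependent histones, respiratory chain subunits and lysosomal proteins. Promoter windows of 5 of them are printed to show short promoter elements known from sterol, histone and lysosomal genes, with Cox6b1 as a respiratory chain gene beside them. The windows run from 250 bases before to 50 bases after the annotated start, 5′ to 3′ on the strand of the gene, and come from RefSeq on GRCm38.p6. Capitals mark the CCAAT box (CCAAT or its reverse complement ATTGG) in the first 4 sequences and the palindrome TCACGTGA, an E-box of the kind found at lysosomal genes, in the last. Msmo1 is on the minus strand at chr8:64733529-64733828, H2bc3 on the plus strand at chr13:23746484-23746783, H2bc12 on the plus strand at chr13:22035571-22035870, Cox6b1 on the minus strand at chr7:30626065-30626364 and Mcoln1 on the plus strand at chr8:3500269-3500568.
Msmo1: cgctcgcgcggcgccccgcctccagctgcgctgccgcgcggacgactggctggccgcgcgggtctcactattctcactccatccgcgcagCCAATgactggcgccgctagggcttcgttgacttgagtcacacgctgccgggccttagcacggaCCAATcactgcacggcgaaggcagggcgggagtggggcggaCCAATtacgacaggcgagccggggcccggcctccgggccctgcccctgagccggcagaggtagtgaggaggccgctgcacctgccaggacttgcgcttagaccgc
H2bc3: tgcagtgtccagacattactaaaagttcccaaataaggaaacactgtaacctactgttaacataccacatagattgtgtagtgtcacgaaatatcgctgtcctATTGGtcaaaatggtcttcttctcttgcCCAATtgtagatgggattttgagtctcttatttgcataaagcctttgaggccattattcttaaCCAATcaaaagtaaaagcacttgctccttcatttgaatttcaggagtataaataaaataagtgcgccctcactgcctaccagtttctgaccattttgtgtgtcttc
H2bc12: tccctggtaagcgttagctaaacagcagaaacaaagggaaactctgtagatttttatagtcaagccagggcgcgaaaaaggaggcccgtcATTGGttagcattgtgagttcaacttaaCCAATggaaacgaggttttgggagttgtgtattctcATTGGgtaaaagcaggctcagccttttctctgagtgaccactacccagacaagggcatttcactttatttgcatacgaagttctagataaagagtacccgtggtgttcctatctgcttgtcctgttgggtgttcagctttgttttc
Cox6b1: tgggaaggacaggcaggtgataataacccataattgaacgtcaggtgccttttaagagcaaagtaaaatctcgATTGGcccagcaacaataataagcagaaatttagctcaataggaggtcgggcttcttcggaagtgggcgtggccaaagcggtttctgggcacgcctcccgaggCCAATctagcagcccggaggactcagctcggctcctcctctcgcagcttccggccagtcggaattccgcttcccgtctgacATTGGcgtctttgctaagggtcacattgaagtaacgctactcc
Mcoln1: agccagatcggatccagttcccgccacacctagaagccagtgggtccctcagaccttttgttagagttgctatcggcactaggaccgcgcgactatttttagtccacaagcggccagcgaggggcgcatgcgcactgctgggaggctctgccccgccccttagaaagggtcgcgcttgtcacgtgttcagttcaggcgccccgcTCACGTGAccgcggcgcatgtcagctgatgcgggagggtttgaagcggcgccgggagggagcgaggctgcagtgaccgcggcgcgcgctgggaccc

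The windows of Msmo1, H2bc3, H2bc12 and Cox6b1 each held 3 copies of the CCAAT box, and that of Mcoln1 held 1 copy of TCACGTGA. Other members of the same lists were mixed. Ndufc2 and Atp5j2 also held the CCAAT box, H4c9 and Ndufa7 did not, and Psap held no TCACGTGA. Of the 74 genes, 56 had a RefSeq window. The CCAAT box was in the windows of 25 of these 56 (44.6%), beside 43.3% of 9337 tested genes with a window and 41.1% of 27025 genes with one. It was in 16 of 35 windows of the genes higher in both lines (45.7%) and in 9 of 21 of those lower (42.9%). The share in the 74 genes was thus close to that of all tested genes. TCACGTGA was in 3 of the 56 windows (5.36%), beside 2.22% of the tested genes. The TATA box TATAAA was in 8 of the 56 windows (14.3%), beside 8.80%. Each motif was read on both strands. Among whole gene lists, the CCAAT box was in 16 of 17 windows of the cholesterol list, 41 of 50 of the histone list and 28 of 64 of the oxidative phosphorylation list (43.8%, close to all tested genes), and TCACGTGA was in 4 of 23 windows of the lysosome list.

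Total counts were 19521877 in the shallowest library, 27288843 in the deepest and 24531756.5 in the median. Levels are given as CPM, the count of a gene scaled to a common library size after TMM normalization, and genes reaching 0.5 CPM in 3 or more libraries were tested. Lars2, a mitochondrial tRNA synthetase gene, was at 66525 counts in shAnxa2-OGDR replicate 1 and at 389 to 2670 in the other libraries, and without that library 45 genes were higher and 31 lower in both lines. Of 15 microglial marker genes, 13 were tested and 1, Sall1, lay below 1 count per library, with a summed level of 1737 to 2175 CPM over the 12 libraries. The 5 neuronal markers together did not exceed 0.918 CPM in any library, the 4 astrocyte markers 0.969 CPM, the 4 oligodendrocyte markers 6.30 CPM and the 5 fibroblast markers 0.376 CPM. The 4 endothelial markers summed to 167 to 170 CPM in shCtrl-CTRL, 61.2 to 67.9 CPM in shCtrl-OGDR, 116 to 124 CPM in shAnxa2-CTRL and 227 to 228 CPM in shAnxa2-OGDR, so they moved in opposite directions in the 2 lines. In bulk RNA, fewer cells of a type and less RNA per cell cannot be told apart.

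The groups were taken from the sample titles. The title and the treatment label agreed in all libraries, but the cell type label reads Anxa2 knockdown for all OGDR libraries and WT for all CTRL libraries, which goes against the line named in the title for 6 of the 12. The targeted gene sided with the titles on the line. Anxa2 was at 165, 174 and 177 CPM in shCtrl-CTRL and 251, 295 and 291 CPM in shCtrl-OGDR, and at 35.0, 44.4 and 41.8 CPM in shAnxa2-CTRL and 18.2, 20.1 and 20.6 CPM in shAnxa2-OGDR. Anxa2 thus rose after OGD/R in the shCtrl line (log2 change 0.70 ± 0.06, SE) and fell in the shAnxa2 line (-1.04 ± 0.08), with a mean change of -0.17 ± 0.05 (edgeR, adjusted p = 0.0312) that lost its call in 7 of 24 alternatives. In mean distance between libraries, the root mean square of the log2 difference over all tested genes, shCtrl-CTRL lay closer to shAnxa2-OGDR (0.416) than to shCtrl-OGDR (0.584) or shAnxa2-CTRL (0.562), while libraries within a group lay 0.252 to 0.280 apart. Likewise, shCtrl-OGDR lay closer to shAnxa2-CTRL (0.453) than to shCtrl-CTRL (0.584) or shAnxa2-OGDR (0.673). The 2 shAnxa2 groups lay 0.496 apart. Each group was thus nearest to the group of the other line and the other treatment. The mean of the 2 changes and their difference divided by 2 would trade places if the treatment names of 1 line were exchanged, and this was not tested.

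With the treatment names taken from the titles, the response that the 2 lines shared was small beside the one in which they differed. Over all tested genes the median absolute mean change was 0.0787 on the log2 scale, against 0.261 for the difference between the lines divided by 2. The mean change reached 2-fold at 26 genes and the difference divided by 2 at 548 genes. The changes had the same sign in both lines at 2090 of the 11626 genes, without regard to any call. Of 783 genes called and changed at least 2-fold in the shCtrl line, 2 were among the 74 and 608 went the opposite way in the shAnxa2 line with a call. Of 412 such genes in the shAnxa2 line, the corresponding counts were 2 and 325.

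**Figure D1:**
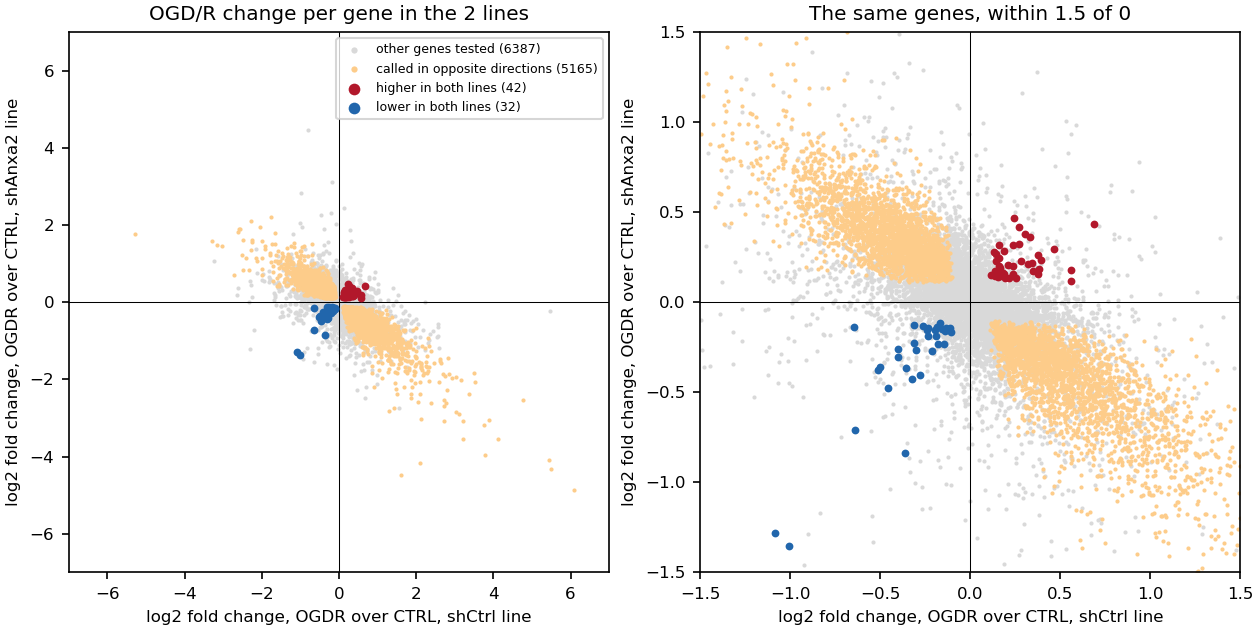
Each point is a gene, with the log2 fold change of OGDR over CTRL in the shCtrl line on the x axis and in the shAnxa2 line on the y axis, for the whole range on the left and within 1.5 of 0 on the right. Most of the 42 genes higher and the 32 lower in both lines sit close to 0 in the upper right and lower left. Exph5 and Slirp, over 2-fold lower in each line, lie farther out. The 5165 genes called in opposite directions spread along the other diagonal.

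The test of the mean change over both lines called 1674 genes (14.4%), 925 higher (7.96%) and 749 lower (6.44%). Without shCtrl-OGDR replicate 1 the lower count was 480. Only 47 of the 1674 had a mean change of 1.5-fold or more. A called mean does not by itself describe a shared response. In 830 of the 1674 genes (49.6%), both lines were called with opposite signs, so that the mean is what was left of 2 unequal opposite changes. In a further 378 genes 1 line was called and the other had the opposite sign. The 74 genes made up 4.42% of the 1674, and 386 genes had 1 line called and the same sign in the other.

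**Figure D2:**
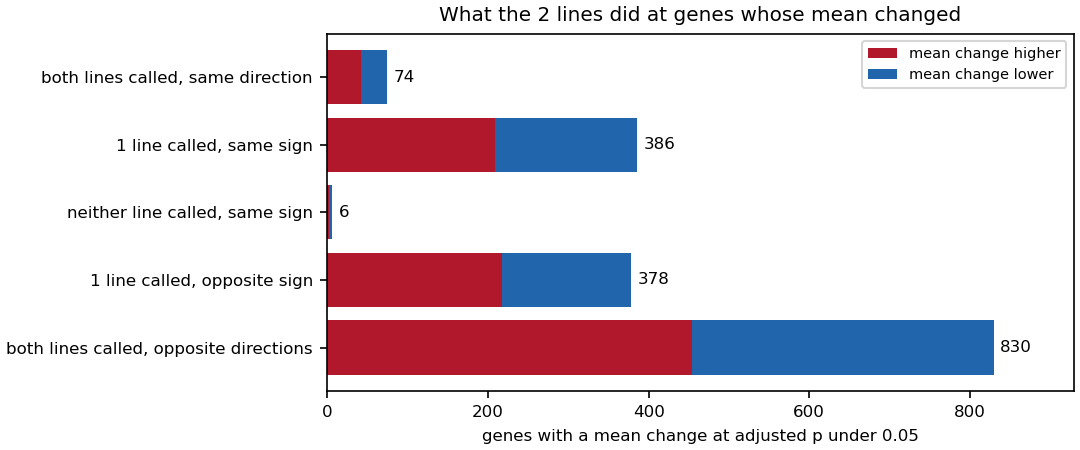
Bars count the 1674 genes with a mean change at adjusted p under 0.05 by what the 2 lines did, split into a higher and a lower mean. The longest bar is the 830 genes called in both lines in opposite directions, and the 74 genes called in the same direction form one of the short bars.

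Genes with opposite changes show what such a mean holds. Acod1, which makes the macrophage metabolite itaconate, was at 62.4, 60.7 and 53.4 CPM in shCtrl-CTRL and 387, 445 and 418 CPM in shCtrl-OGDR, but at 1222, 1255 and 1243 CPM in shAnxa2-CTRL and 524, 447 and 390 CPM in shAnxa2-OGDR. It rose in 1 line and fell in the other, and its mean change of 0.69 ± 0.05 (edgeR, adjusted p = 3.97e-08) described neither line. Trem1, a receptor that amplifies myeloid inflammatory signals, had a mean change of -0.84 ± 0.12 from -3.17 ± 0.19 in the shCtrl line and 1.49 ± 0.13 in the shAnxa2 line. Fos, an immediate early transcription factor, had -0.75 ± 0.11 from -2.32 ± 0.14 and 0.83 ± 0.15. Bmper, a regulator of bone morphogenetic protein signaling, had -0.84 ± 0.19 from -2.50 ± 0.29 and 0.83 ± 0.21. The other two genes picked by the rule for opposite changes had a higher mean, Tspan10, a tetraspanin, with 0.66 ± 0.14, and the zinc finger gene Zfp811 with 0.74 ± 0.25. The interaction test called 8136 genes (70% of those tested), 5 of the 74 among them. Nothing is read from this test for the 6 genes, chosen for opposite calls, or for the 74, chosen for the same sign.

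The 74 genes changed little. Within single lines, 3764 genes rose (32.4%) and 3608 fell (31%) in shCtrl, and 3274 rose (28.2%) and 3118 fell (26.8%) in shAnxa2. The mean change of the 42 higher genes ran from 0.13 to 0.56, or 1.10- to 1.47-fold, with a median of 0.21. In the 32 lower genes the mean change was -0.13 at the least, -0.23 in the median and -1.18 at the most. The 2 genes of 2-fold or more in both lines, Exph5 and Slirp, were the only members under 1 CPM. Slirp shares 93.9% of its exon bases with Snw1 on the opposite strand, and since the library kit does not mark strand, reads of the 2 genes cannot be told apart. Among the 74 genes, 16 share exon bases with another protein-coding gene, 8 of them over 10% of their exon bases. Lat2, for example, shares 36.3% with Rfc2 on the opposite strand. In 54 of the 74 genes the 3 OGDR and 3 CTRL libraries did not overlap in either line, as in 120 of all tested genes (1.03%), 64 in the higher direction (0.55%) and 56 in the lower (0.482%). In 20 of them none of the 6 OGDR libraries overlapped the 6 CTRL libraries, as in 30 of all tested genes (0.258%). The change was larger in the shCtrl line at 41 genes and in the shAnxa2 line at 33. No overlap in either line was a condition for the genes named for the size of their change, Cox6b1, Msmo1, Stard4 and Ptgs2 among them. For these genes it is a description and not support.

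**Figure D3:**
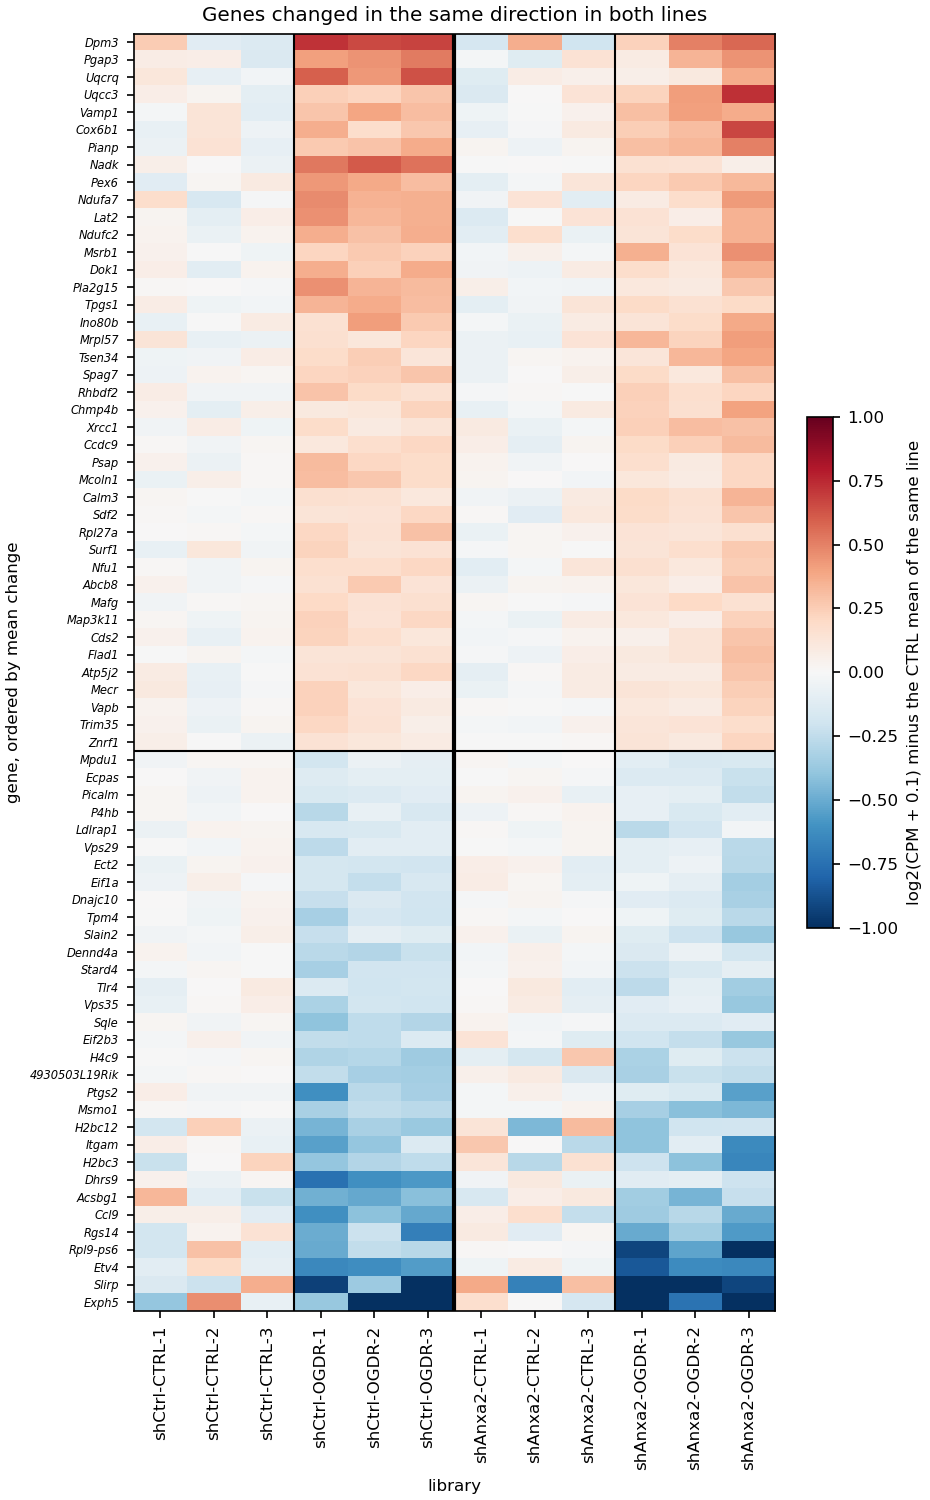
Each row is a gene of the 74, of which 1 is not drawn, ordered by mean change, and each column 1 of the 12 libraries, with color showing log2(CPM + 0.1) minus the CTRL mean of the same line. Over the 42 higher genes the median of an OGDR library was 0.211 to 0.226 in the shCtrl line and 0.149, 0.148 and 0.301 in the shAnxa2 line, where replicate 3 has the strongest color.

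The count and the split depended on the scaling and on single libraries. With TMM scaling 42 genes were higher and 32 lower, with the size factors of DESeq2 39 and 37, with library totals 31 and 42, and with upper-quartile scaling 29 and 45. Of the 74 genes, 71 were kept with DESeq2 size factors, 62 with library totals and 46 with upper-quartile scaling. Without shAnxa2-OGDR replicate 3 there were 28 higher and 21 lower genes, and 40 of the 74 were kept. Without shCtrl-OGDR replicate 1 there were 34 higher and 20 lower. Over 7 settings (3 scalings, DESeq2, the replicate block, GC trend removed, and without shAnxa2-OGDR replicate 3), 21 of the 74 genes, 10 higher and 11 lower, were kept in each. They include Vamp1, Pianp, Pex6, Cox6b1, Msrb1, Rhbdf2, Psap, Mafg, Dpm3 and Spag7 among the higher genes, and Etv4, Rgs14, Ccl9, Msmo1, Sqle, H4c9, Eif2b3 and Dnajc10 among the lower. Of the genes named below, Ino80b, Nadk and Atp5j2 were kept in 4 settings, Ndufa7, Mcoln1, Pla2g15, Pgap3 and Xrcc1 in 3 and Uqcrq in 2.

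A base composition trend moved with the mean change. Genes were divided into 10 equal groups by the GC content of their longest coding transcript (GENCODE vM21, available for 11586 genes and for all 74). The median mean change was -0.067 in the group of lowest GC and 0.069 in that of highest GC. It rose from -0.044 to 0.049 in the shCtrl line and from -0.088 to 0.087 in the shAnxa2 line. Of genes with a called mean change, 17 were higher and 151 lower in the lowest group, and 188 were higher and 16 lower in the highest. The median GC content was 54.7% for the higher genes of the 74, 45.6% for the lower and 50.3% for all tested genes. Median transcript length was 1936 bases for the higher genes, 2943 for the lower and 3088 for all tested genes.

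The library that stood apart in this respect was shAnxa2-OGDR replicate 3. Its median log2 level, relative to the mean of all libraries, differed by 0.310 between the groups of highest and lowest GC, and in the other 11 libraries this difference was -0.123 to 0.0654. With the trend of each library on GC removed, 26 genes were higher and 36 lower in both lines, and 45 of the 74 remained (21 higher and 24 lower). All 74 kept the same sign in both lines, and 72 kept a called mean change. With this library left out as well, 18 were higher and 27 lower. Whether the trend is part of the response to OGD/R was not tested.

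**Figure D4:**
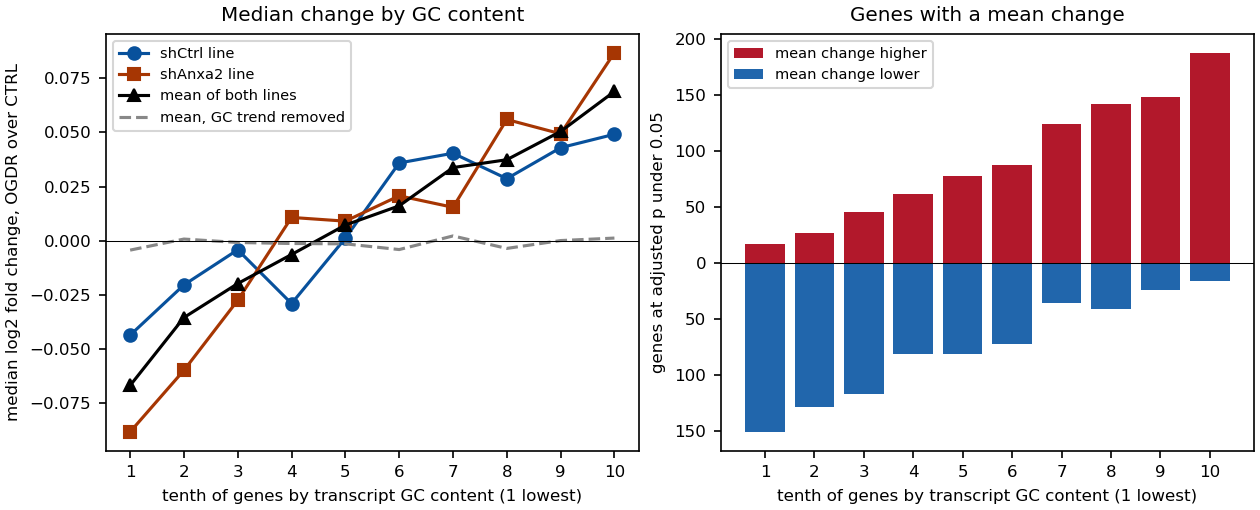
The left panel shows the median log2 fold change in 10 groups of genes ordered by transcript GC content, per line and as the mean before (triangles) and after (dashed) removal of the trend of each library. The right panel counts genes with a called mean change, from 17 higher and 151 lower at the lowest GC to 188 higher and 16 lower at the highest.

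Of 23 tested genes of cholesterol synthesis and uptake, 11 fell in the mean (47.8%) and 0 rose, beside 6.44% and 7.96% of all tested genes, and 12 had no called mean change. The list median was -0.14, beside 0.0072 for all tested genes, and was -0.037 in the shCtrl line and -0.25 in the shAnxa2 line. Of the 11, 5 were called in opposite directions in the 2 lines. The 3 that fell in both lines were Msmo1 and Sqle, enzymes that act on methylsterols and on squalene, and Stard4, a carrier of cholesterol between membranes. In the whole list 13 genes (56.5%) were called in opposite directions, beside 44.4% of all tested genes. The counts of 11 and 0 held with the 3 other scalings and with the GC trend removed, and were 10 and 0 without shAnxa2-OGDR replicate 3.

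Of the 3, Msmo1 had the largest mean change. It was at 88.3, 86.9 and 87.0 CPM in shCtrl-CTRL, 69.7, 73.7 and 72.5 CPM in shCtrl-OGDR, 97.8, 98.1 and 101.9 CPM in shAnxa2-CTRL and 78.6, 74.2 and 72.7 CPM in shAnxa2-OGDR. Every OGDR library lay below every CTRL library, with a mean change of -0.34 ± 0.03 (0.790-fold). Sqle was at 191, 183 and 191 CPM in shCtrl-CTRL, 143, 158 and 154 CPM in shCtrl-OGDR, 195, 186 and 189 CPM in shAnxa2-CTRL and 173, 173 and 176 CPM in shAnxa2-OGDR. It also separated all OGDR from all CTRL libraries, and its fall was -0.31 ± 0.05 in the shCtrl line and -0.13 ± 0.05 in the shAnxa2 line. Stard4 had a mean change of -0.20 ± 0.04 with all OGDR below all CTRL libraries, and was no longer called in both lines with the GC trend removed.

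Of 78 tested nuclear genes of oxidative phosphorylation, 19 rose and 6 fell in the mean (24.4% and 7.69%, beside 7.96% and 6.44% of all tested genes). Of the 78, 17 (21.8%) were called in opposite directions, beside 44.4% of all tested genes. The list median was 0.054 in the mean, 0.17 in the shCtrl line and -0.095 in the shAnxa2 line. Without shAnxa2-OGDR replicate 3 the counts were 13 and 5, with library totals 14 and 7, and with the GC trend removed 14 and 8. Higher in both lines were 5 subunits, Ndufa7 and Ndufc2 of complex I, Uqcrq of complex III, Cox6b1 of complex IV and Atp5j2 of the ATP synthase. Uqcc3, an assembly factor of complex III that is outside the list, was also among the 42. Of 11 tested mitochondrially encoded genes, 0 rose and 3 fell (27.3%) in the mean, with a median of -0.15 and 6 (54.5%) called in opposite directions. This list has a median GC content of 37.1%, and its median was -0.066 with the GC trend removed and -0.077 without shAnxa2-OGDR replicate 3.

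Cox6b1 was at 26.0, 29.9 and 26.4 CPM in shCtrl-CTRL, 35.3, 31.0 and 33.0 CPM in shCtrl-OGDR, 23.1, 24.3 and 26.1 CPM in shAnxa2-CTRL and 29.1, 30.3 and 39.0 CPM in shAnxa2-OGDR. Neither line overlapped, and the highest value was that of shAnxa2-OGDR replicate 3. The mean change of Cox6b1 was 0.34 ± 0.06 (1.27-fold). Uqcrq was at 123, 107 and 111 CPM in shCtrl-CTRL, 173, 154 and 177 CPM in shCtrl-OGDR, 153, 175 and 172 CPM in shAnxa2-CTRL and 173, 178 and 215 CPM in shAnxa2-OGDR. In the shAnxa2 line the groups overlapped, and its change was 0.18 ± 0.07 there and 0.56 ± 0.07 in the shCtrl line. Of the 5 list members, Cox6b1 remained called in both lines without shAnxa2-OGDR replicate 3 and the other 4 did not, and Cox6b1 and Ndufc2 remained with upper-quartile scaling or library totals. Ndufa7, Ndufc2 and Atp5j2 had mean changes of 0.31 ± 0.06, 0.28 ± 0.05 and 0.16 ± 0.04, and Uqcc3 had 0.36 ± 0.07.

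Of 28 tested lysosomal genes, 10 rose (35.7%, beside 7.96% of all tested genes) and 0 fell in the mean, and 18 had no called mean change. Of the 28, 5 (17.9%, beside 44.4% of all tested genes) were called in opposite directions, 2 of them among the 10. The list median was 0.081 in the mean, 0.15 in the shCtrl line and 0.020 in the shAnxa2 line. The counts were 7 and 0 without shAnxa2-OGDR replicate 3 or with the GC trend removed. Psap, the precursor of the saposins that help degrade sphingolipids, and Mcoln1, a calcium channel of the lysosomal membrane, rose in both lines. Psap, which had the highest CPM of the 74 genes without correction for length, was at 3174, 2950 and 3100 CPM in shCtrl-CTRL, 3830, 3544 and 3495 CPM in shCtrl-OGDR, 2898, 2763 and 2830 CPM in shAnxa2-CTRL and 3177, 3019 and 3267 CPM in shAnxa2-OGDR. The groups did not overlap within either line, and the mean change was 0.20 ± 0.03 (1.15-fold). Mcoln1 had a mean change of 0.20 ± 0.04 with no overlap of OGDR and CTRL libraries over both lines. It was kept in 3 of the 7 settings, and not with the GC trend removed or without shAnxa2-OGDR replicate 3.

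Histone genes held 3 of the 32 lower genes. H2bc3 and H2bc12, which encode histone H2B, and H4c9, which encodes histone H4, are replication-dependent genes of the cluster on chromosome 13. Their mean changes were -0.37 ± 0.07, -0.35 ± 0.09 and -0.27 ± 0.05. H4c9 was at 89.1, 88.5 and 90.6 CPM in shCtrl-CTRL, 72.6, 73.5 and 69.9 CPM in shCtrl-OGDR, 107.6, 102.4 and 139.5 CPM in shAnxa2-CTRL and 92.9, 106.3 and 99.4 CPM in shAnxa2-OGDR. In all 3 genes the shCtrl groups were apart and the shAnxa2 groups overlapped. Of 56 tested histone genes 2 rose (3.57%) and 7 fell (12.5%) in the mean, beside 7.96% and 6.44% of all tested genes. In opposite directions 41 were called (73.2%, beside 44.4%), so the 3 genes differ from most of their list. Histone genes are near-identical copies and their mRNAs mostly lack a poly(A) tail, so their counts are uncertain. The mean change of H2bc12 was not called with DESeq2 (adjusted p = 0.0522), and neither H2bc3 (adjusted p = 0.062) nor H2bc12 (adjusted p = 0.11) with a robust edgeR prior.

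**Figure D5:**
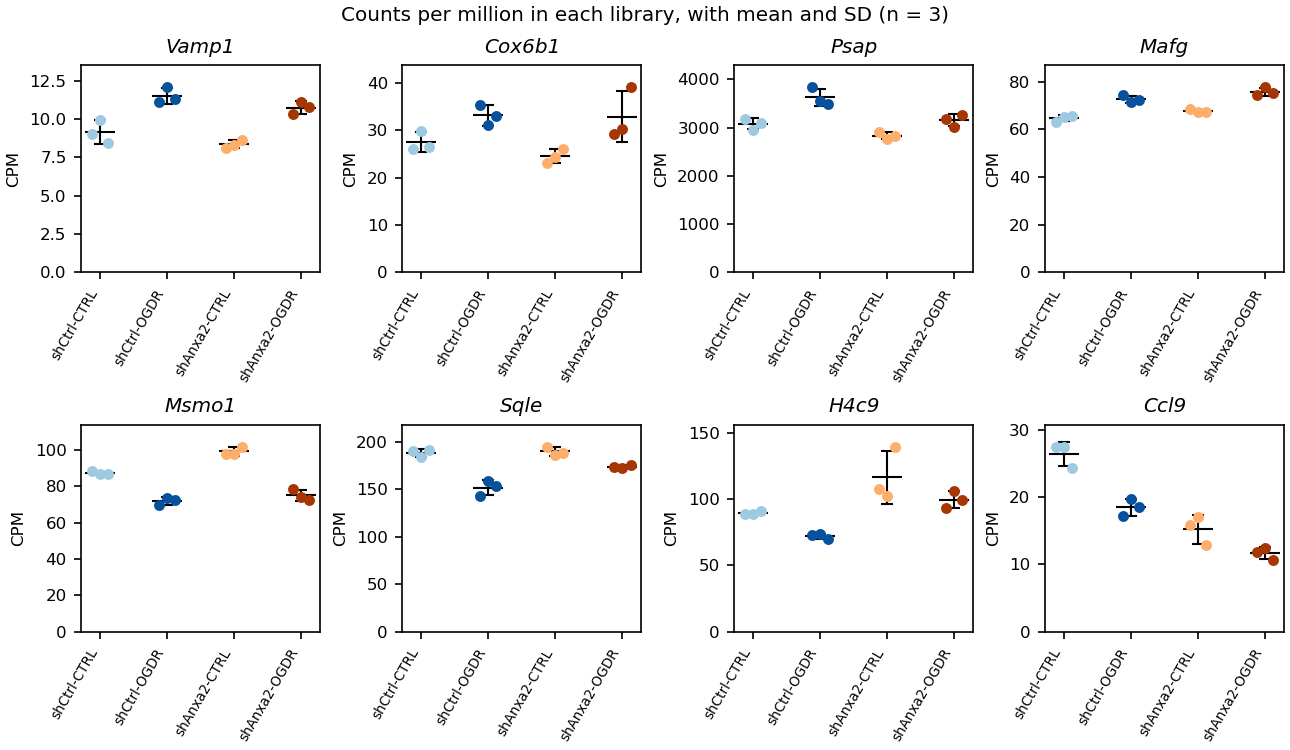
Points show the CPM of each library for 8 of the genes called in both lines, with bars for the mean and SD of the 3 libraries of a group. In Vamp1, Mafg, Msmo1 and Sqle all OGDR libraries lie on one side of all CTRL libraries, and in H4c9 the shAnxa2 groups overlap.

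Among the lists for signaling and stress, single members were shared. Ptgs2, the inducible cyclooxygenase and a target of NF-kB, was at 32.0, 29.8 and 29.7 CPM in shCtrl-CTRL, 19.8, 25.2 and 24.2 CPM in shCtrl-OGDR, 44.5, 46.8 and 43.9 CPM in shAnxa2-CTRL and 41.4, 40.5 and 30.9 CPM in shAnxa2-OGDR. It lay lower after OGD/R in each line with no overlap, and was no longer called in both lines without shAnxa2-OGDR replicate 3, the lowest library of that group. Of 37 tested NF-kB targets, 16 rose and 6 fell in the mean (43.2% and 16.2%, beside 7.96% and 6.44% of all tested genes). In opposite directions 20 were called (54.1%, beside 44.4%), 14 of them among the 22. The list median was 0.19 in the mean, 0.58 in the shCtrl line and -0.21 in the shAnxa2 line. Mafg, a small Maf protein that pairs with NRF2, was at 63.2, 65.0 and 65.6 CPM in shCtrl-CTRL, 74.3, 71.3 and 72.3 CPM in shCtrl-OGDR, 68.4, 67.2 and 67.2 CPM in shAnxa2-CTRL and 74.5, 77.6 and 75.3 CPM in shAnxa2-OGDR. All OGDR libraries lay above all CTRL libraries, at a mean change of 0.17 ± 0.03, and it was the 1 NRF2 target of 25 called in the same direction in both lines. Prdx1, another NRF2 target, went the other way, with a mean change of -0.13 ± 0.04, and lay just outside the threshold. Of the 25, 7 rose and 2 fell in the mean (28% and 8%, beside 7.96% and 6.44% of all tested genes). In opposite directions 14 were called (56%, beside 44.4%), 4 of the 7 among them.

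Rpl27a, of the large ribosomal subunit, and Mrpl57, of the mitochondrial ribosome, were higher in both lines by 0.18 ± 0.03 and 0.24 ± 0.05. Of 76 cytosolic ribosomal protein genes, 11 rose and 2 fell in the mean (14.5% and 2.63%, beside 7.96% and 6.44% of all tested genes). The counts were 8 and 6 with the GC trend removed, and 6 and 1 without shAnxa2-OGDR replicate 3. Of 76 mitochondrial ribosomal protein genes, 5 rose and 3 fell (6.58% and 3.95%). Rpl27a and the pseudogene Rpl9-ps6, which was lower with a mean change of -0.60 ± 0.11, share reads with near-identical copies, so their counts are uncertain. Ect2, a regulator of cytokinesis and the only mitosis gene of 34 lower in both lines, stood at the edge of the rule.

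The next 3 lists had called mean changes but no gene called in the same direction in both lines. Over all tested genes 7.96% rose and 6.44% fell in the mean, and 44.4% were called in opposite directions. Of 32 tested ribosome biogenesis genes 0 rose and 14 fell (43.75%) in the mean, while 30 (93.75%) were called in opposite directions. The list median was -0.66 in the shCtrl line and 0.49 in the shAnxa2 line. Of 27 genes of endoplasmic reticulum chaperones and the unfolded protein response, 1 rose (3.70%) and 14 fell (51.9%) in the mean and 16 (59.3%) were called in opposite directions. Of 34 ATF4 targets, which respond to amino acid and protein stress, 9 rose (26.5%) and 0 fell, and 31 (91.2%) were called in opposite directions. Both lines were called in opposite directions at all 14 of the called ribosome biogenesis genes, at 10 of the 15 called chaperone genes and at all 9 of the called ATF4 targets. Dnajc10 and P4hb, of the endoplasmic reticulum but outside the chaperone list, are among the 32 lower genes. Of 28 targets of HIF, the factor stabilized when oxygen is low, 0 rose and 7 fell (25%) in the mean, and 0 were among the 74. In opposite directions 19 were called (67.9%), with a median of 0.32 in the shCtrl line and -0.53 in the shAnxa2 line. Of 21 glycolysis genes, 1 rose (4.76%) and 2 fell (9.52%) in the mean and 17 (81.0%) were called in opposite directions.

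Outside the lists, higher genes with no overlap in either line and the largest change in the line that changed less included Vamp1, Pianp, Pex6, Msrb1, Ino80b, Dok1 and Rhbdf2. Dpm3 (0.43) and Pgap3 (0.30) were passed over because their shAnxa2 groups overlapped. Vamp1, a vesicle SNARE on chromosome 6 from 125192514 to 125222927 (mm39, plus strand), was at 9.02, 9.97 and 8.45 CPM in shCtrl-CTRL, 11.1, 12.1 and 11.3 CPM in shCtrl-OGDR, 8.12, 8.33 and 8.62 CPM in shAnxa2-CTRL and 10.3, 11.1 and 10.8 CPM in shAnxa2-OGDR. Its changes of 0.33 ± 0.10 and 0.36 ± 0.10 were alike in size, and all OGDR libraries lay above all CTRL libraries. Pianp, a type I membrane protein, had a mean change of 0.34 ± 0.05, and Pex6, an ATPase of peroxisome biogenesis, 0.32 ± 0.05. Msrb1, a selenoprotein that reduces oxidized methionine, had 0.28 ± 0.05 with all 6 OGDR libraries above the 6 CTRL libraries, as had Pex6 and Dok1. Dok1, an adaptor that dampens tyrosine kinase signals in myeloid cells, had 0.27 ± 0.05, and Ino80b, a subunit of the INO80 chromatin remodeler, 0.26 ± 0.06. Rhbdf2, which carries the sheddase of tumor necrosis factor to the cell surface, had the same change in each line (0.21 ± 0.05).

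In the lower direction the same rule, with its condition of no overlap, gave Etv4, Rgs14, Ccl9, Acsbg1, Eif2b3 and Dnajc10, besides Rpl9-ps6. Etv4, an ETS transcription factor induced by ERK signaling, was at 3.05, 3.77 and 3.09 CPM in shCtrl-CTRL, 2.07, 2.10 and 2.20 CPM in shCtrl-OGDR, 11.1, 12.2 and 11.2 CPM in shAnxa2-CTRL and 6.33, 7.39 and 7.32 CPM in shAnxa2-OGDR. The level was higher in the shAnxa2 line in both conditions, and the fall was -0.64 ± 0.16 and -0.71 ± 0.12. Ccl9, a macrophage chemokine, was at 27.4, 27.6 and 24.4 CPM in shCtrl-CTRL, 17.2, 19.8 and 18.5 CPM in shCtrl-OGDR, 15.8, 17.1 and 12.9 CPM in shAnxa2-CTRL and 11.8, 12.5 and 10.7 CPM in shAnxa2-OGDR. Here the level was higher in the shCtrl line, and the mean change was -0.45 ± 0.07 (0.734-fold). Rgs14, a regulator of G protein signaling, had -0.47 ± 0.10 with all OGDR below all CTRL libraries. Acsbg1, an acyl-CoA synthetase that was not called in both lines by DESeq2, had -0.43 ± 0.12, Eif2b3, a subunit of the guanine exchange factor of translation initiation, -0.24 ± 0.05, and Dnajc10, a reductase of the endoplasmic reticulum, -0.19 ± 0.04.

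Some members outside this rule were picked after their values were seen. Dpm3, which anchors the enzyme making dolichol-phosphate mannose, had the largest mean change of the higher genes (0.56 ± 0.10), at 6.73 to 8.86 CPM in shCtrl-CTRL and 11.8 to 12.3 CPM in shCtrl-OGDR, but its shAnxa2 groups overlapped. Nadk, the NAD kinase, rose by 0.56 ± 0.05 in the shCtrl line and 0.12 ± 0.05 in the shAnxa2 line. Tlr4, the receptor of bacterial lipopolysaccharide, had a mean change of -0.20 ± 0.05. Itgam, which encodes the integrin CD11b and was the 1 gene of the microglial marker list among the 74, had -0.36 ± 0.09 at a mean of 14.1 CPM, but 68.7% of its exon bases are shared with the annotated gene Gm49368, so its level is uncertain. Vps35 and Vps29, subunits of the retromer complex that returns receptors from endosomes, had -0.21 ± 0.05 and -0.15 ± 0.04.

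Just inside the threshold, Ect2 had a larger within-line adjusted p (edgeR) of 0.0499 and P4hb, a protein disulfide isomerase, of 0.0485. Just outside it, Pias4, a SUMO ligase, had 0.0502 and Prdx1, a peroxiredoxin, a value that exceeded 0.05 in the fifth decimal. The 4 genes had mean changes of -0.16 ± 0.04, -0.14 ± 0.03, 0.19 ± 0.05 and -0.13 ± 0.04, so the edge of the set is not a gap in the data.

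The difference between untreated lines was not used by the rule. It was called (edgeR, adjusted p under 0.05) at 26 of the 42 higher genes (61.9%) and at 16 of the 32 lower, beside 59.2% of all tested genes, so the 74 genes were not set apart in this. Of the 26, 17 were higher in the shAnxa2 line, and of the 16, 10 were. The median level, not corrected for gene length, was 65.1 CPM for the higher genes and 81.4 CPM for the lower, beside 35.2 CPM for all tested genes.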

How the data were processed

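RNA of 12 libraries was measured by RNA-seq. The deposited table gives raw counts for 21834 genes, which the authors did not normalize. The submitters' processing notes name HISAT2 2.0.4 and mm39, and the RNA-seq methods, written for hippocampi, name other tools. The counter used for these cells is not given in the sources used here. The table also holds 12 per-sample columns of normalized values, which were not used. Genes reaching 0.5 CPM in 3 or more libraries were fitted with edgeR 4.0.16 in R 4.3.3 (TMM, 1 coefficient per group, quasi-likelihood test, Benjamini-Hochberg over 11626 genes). The contrasts were OGDR against CTRL in each line, their mean and their difference. Standard errors were derived from each log2 change and its F statistic. DESeq2 1.42.0 and voom of limma 3.58.1 were alternatives. The steps were tested on simulated counts.

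The members and the 31 gene lists were chosen with earlier results of these data known. Named genes were the 10 per direction with the largest smaller change of the 2 lines (mean of at least 1 CPM, no overlap within either line, no predicted names), 3 per direction with opposite changes, list members, Anxa2, and 4 genes at the threshold. Replicate numbers were not treated as pairs in the main fit. Same-numbered libraries correlated by -0.045 to 0.12 and others by -0.095 to 0.086. The highest value was that of shAnxa2-CTRL replicate 3 with shAnxa2-OGDR replicate 3. With 3 libraries per group these values cannot show whether same-numbered libraries were handled together. The genome used for GC content, exon overlap and promoters was GRCm38, matched by gene identifier or symbol. GC and length checks, and the removal of shAnxa2-OGDR replicate 3 with the GC trend, were chosen after seeing the data. Of the genes this rule names, 1 is not reported here.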

Additional observations from a re-analysis of the deposited data

Results flagged for a closer look

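The OGD/R change differed between the lines at 8136 of 11626 genes (70% of those tested, edgeR interaction, adjusted p under 0.05). Of the 74 genes changed in the same direction, 5 were among them. Uqcrq rose less in the shAnxa2 line (interaction -0.38), as did Pla2g15, a lysosomal phospholipase (-0.22), and Nadk (-0.44). Sqle fell less in the shAnxa2 line (0.19), as did Dhrs9, a retinol dehydrogenase (0.51). Among the genes named for opposite changes or as the target of the knockdown, the interaction was -5.58 for Zfp811, 4.65 for Trem1, -4.28 for Acod1, 3.16 for Fos, 3.32 for Bmper, -2.65 for Tspan10 and -1.74 for Anxa2. These 7 genes were chosen for opposite calls or as the target, and the 5 before them for within-line calls of the same sign. Their interactions are thus a description. No test for outlying values was run within groups, which hold 3 libraries each.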

How the results depend on the processing

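The same-direction counts stayed within 1.5 times of 42 higher and 32 lower genes with the size factors of DESeq2, upper-quartile scaling, library totals, a filter of 1 CPM, DESeq2, voom, a robust prior and separate fits per line, although 46 to 71 of the 74 genes were kept under the 3 scalings and DESeq2. With no filter 49 genes were lower in both lines and 1150 had a lower mean. At an adjusted p under 0.01, 11 were higher and 6 lower in both lines, and 414 had a higher and 312 a lower mean. At an unadjusted p under 0.05, 1849 had a higher and 1527 a lower mean. With a limit of 1.5-fold, 0 were higher (edgeR, beside 62 at an unadjusted p under 0.05 and 36 by DESeq2, both with no limit on the fold) and 3 lower in both lines, 1064 were opposite, and 16 had a higher and 31 a lower mean. With the GC trend removed 26 were higher in both lines, also 26 with the GC and length trends removed, and 18 with the GC trend removed and without shAnxa2-OGDR replicate 3, where 499 had a higher mean.

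Leaving out each library gave 28 to 49 higher and 20 to 35 lower genes in both lines, 4698 to 5036 opposite, and 656 to 918 with a higher and 480 to 721 with a lower mean. The replicate block gave 47 higher, 32 lower and 5143 opposite genes, and 932 with a higher and 741 with a lower mean, changed none of these counts by over 1.5 times, and kept 72 of the 74 genes, without Acsbg1 and Xrcc1. Of 1056 mean changes of named genes recomputed under alternatives, 1020 kept their side of the threshold, 36 lost it and 0 changed sign. The mean change of Zfp811 lost its call under most alternatives that leave out a library (lowest 0.47, without shAnxa2-OGDR replicate 2). With a common biological coefficient of variation of 5.35%, depth limits the members under 1 CPM most.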

Other observations

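Other gene lists, described by the mean over both lines, held no gene changed in the same direction in both. Over all tested genes 7.96% rose and 6.44% fell in the mean, and 44.4% were called in opposite directions. Of 15 tested genes of MHC class I and peptide loading, 5 rose (33.3%) and 0 fell in the mean, with a list median of 0.091, and 9 (60%) were called in opposite directions. Of 19 heat shock chaperones, 0 rose and 7 fell (36.8%) in the mean, with a median of -0.10, and 14 (73.7%) were called in opposite directions. Without shAnxa2-OGDR replicate 3, 3 of the 19 fell. Of 26 immediate early genes, 4 rose and 4 fell, and with the GC trend removed 3 rose and 12 fell. Of 41 DNA replication genes, 6 rose and 9 fell and 33 were called in opposite directions. Of 24 autophagy genes, 4 rose and 0 fell, 2 rose with each of the 3 other scalings, and 1 with the GC trend removed. Of 32 interferon-stimulated genes, 1 rose and 1 fell, and of 17 clock genes, 2 rose and 0 fell.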
